A study of Mus musculus with 12 samples.

Results

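Odorant receptors (ORs) of the mouse main olfactory epithelium (MOE) whose ligands or glomerular maps are well known were examined for their signal in whole epithelium and for its dependence on H2be, a variant of histone H2B found in olfactory neurons. The members were 7 genes, Olfr2 (I7), Olfr16 (MOR23), Olfr17 (P2), Olfr73 (mOR-EG), Olfr78, Olfr151 (M71) and Olfr160 (M72), and were taken as every probe set whose annotated symbols include one of them. They lay on 7 of the 1132 probe sets annotated to an OR, among 28944 experimental probe sets in all. Of these, 5 carried a single symbol, for Olfr2, Olfr16, Olfr17, Olfr73 and Olfr151. The other two each listed a second gene, one shared by Olfr151 and Olfr160 and one shared by Olfr78 and its neighbour Olfr560, and their signals are given for the pair. Olfr160 and Olfr78 therefore had no probe set of their own.

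RNA was taken from the whole MOE of mice aged 6 months and hybridised to the Mouse Gene 1.0 ST platform of Affymetrix, each array carrying RNA pooled from a pair of animals. The H2be-KO mice carry, in place of the H2be coding sequence, one for a membrane-bound mCherry (Gap43-mCherry), so that the knockout allele also makes a fluorescent protein in olfactory neurons. The allele was made in embryonic stem cells and the line was then crossed to C57Bl/6. H2be-KO mice were compared with wild-type (WT) mice of the same age, with 6 arrays of each genotype. Values are log2 signals, so a difference of 1 is a doubling.

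Each mature olfactory neuron transcribes a single OR gene from a single allele, and neurons that share a receptor are scattered within a zone of the epithelium and send their axons to a few glomeruli of the olfactory bulb. The members became reference receptors in different ways. I7 was the receptor paired with octanal and related aldehydes, MOR23 with lyral, mOR-EG with eugenol, and M71 and M72 with acetophenone. P2, M71 and M72 neurons carrying genetic tags were used to trace axons to glomeruli, and Olfr78 is a class I receptor for short-chain fatty acids that is also studied in kidney and carotid body. In bulk tissue, a lower receptor signal from fewer neurons cannot be told apart from one due to less RNA per neuron.

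RefSeq (assembly GRCm38.p6) lists sequence upstream of Olfr16, Olfr17, Olfr73 and Olfr160, with Olfr2, Olfr78 and Olfr151 not matched. The Olfr17 and Olfr73 models begin at the ATG itself, as did 72.3% of 947 receptor models, and the Olfr160 model begins 3 bases before it, so that their upstream windows need not be promoters. Olfr16 is shown because its model begins 29 bases before the first ATG, though its window need not be a promoter either. Its 250 bases upstream, chr1:172956518-172956767 on the plus strand, are printed with matches to the homeodomain motif TAATNA in capitals, all 3 of which read on the minus strand.

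Olfr16: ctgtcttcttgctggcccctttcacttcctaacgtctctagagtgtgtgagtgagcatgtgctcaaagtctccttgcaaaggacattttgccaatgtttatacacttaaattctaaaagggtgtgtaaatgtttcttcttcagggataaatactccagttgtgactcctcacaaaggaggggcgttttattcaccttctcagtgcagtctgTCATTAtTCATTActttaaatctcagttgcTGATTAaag

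The matches lie at -39 to -34, -32 to -27 and -9 to -4 from the annotated start. The same motif, searched on both strands, was present in 63.9% of the receptor windows and in 24.3% of 32851 windows of all genes. CCCNNGGG, a core of sites for the olfactory factor Ebf, had no match in this window and was present in 2.75% of receptor windows and 11.8% of all windows. A match is a run of letters and not a measured site.

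Across the series, the array medians ranged from 7.84 to 7.90 and arrays correlated with each other at 0.951 to 0.985. Mature neuron markers were among the brightest probe sets, with Omp at 12.90 ± 0.07 (SD, n = 6) in both genotypes and the channel subunit Cnga2 at 12.20 ± 0.10 in H2be-KO and 12.11 ± 0.11 in WT. The H2be signal itself was 11.65 ± 0.12 in the knockout arrays against 11.89 ± 0.17 in the WT arrays (exact permutation p = 0.0195, n = 6 each). Whether its probes lie within the replaced stretch was not analysed here. H2be-KO replicates 1 and 6 stood apart in the enamel gene Amelx, at 11.87 and 11.66 against 5.11 to 6.03 in the other arrays. Xist separated replicates 1 to 3 (11.39 to 11.67) from replicates 4 to 6 (0 to 3.89) in both genotypes. The mean of the Y-linked probe sets ran from 1.42 to 10.21 in H2be-KO and from 1.99 to 10.27 in WT. These genes are sex-linked, so the arrays of each genotype split by sex, as read from signals alone. The tests of genotype alone did not take that split into account.

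The members covered much of the range of receptor signals. Over all 12 arrays, the 1132 receptor probe sets had means from 3.11 to 11.70, with a median of 7.50 and quartiles of 6.70 and 8.32. Olfr17 (P2) was the brightest of the 7 at the 77.3rd percentile of receptors, and Olfr73 (59.3rd) and Olfr16 (49.0th) lay near the middle. The probe set shared by Olfr151 and Olfr160 was at the 33.7th percentile. Olfr2 lay at the 16.0th, the probe set of Olfr151 alone at the 13.1st and that shared by Olfr78 and Olfr560 at the 5.57th. Probes differ in how well they bind, so these ranks compare signals and are not an order of transcript amounts.

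**Figure D1:**
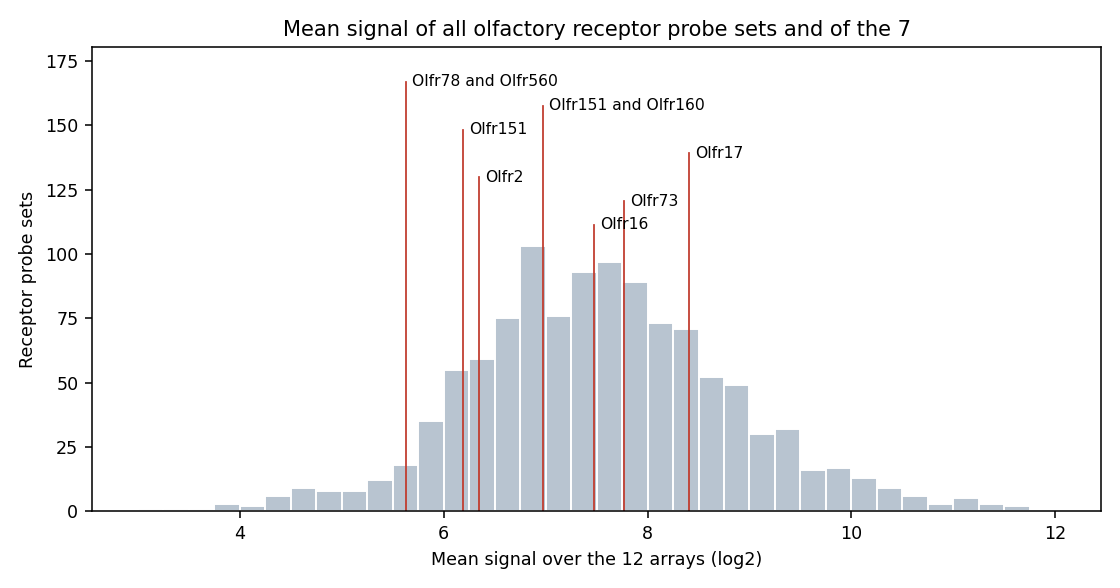
Mean log2 signal over the 12 arrays (x axis) for the 1132 receptor probe sets, as the number of probe sets in each bin (y axis), with the 7 probe sets marked by vertical lines whose heights only space the names. The 7 means run from 5.63 to 8.41, and that of Olfr17 alone lies above the receptors' upper quartile of 8.32.

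No member passed the test between the genotypes in the fit of genotype alone, with all arrays kept and weighted alike. Of the 7 probe sets, 0 passed an unadjusted limma p of 0.05, against 5.27% of the 1101 receptor probe sets tested and 5.55% of all 28151 probe sets tested. Of the receptors called, 50 were higher in H2be-KO and 8 lower, beside 1065 higher and 498 lower among all probe sets. In 0 of 7 did the genotypes fail to overlap, against 0.178% of all probe sets. After Benjamini-Hochberg adjustment no probe set of any kind passed, and the smallest adjusted p in limma was 0.572. The 4 members with a higher mean in H2be-KO and the 3 with a lower one had a median difference of 0.07, beside 0.06 over all receptors tested and 0.02 over all probe sets. Of the receptors tested, 65.9% had a higher mean in H2be-KO.

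**Figure D2:**
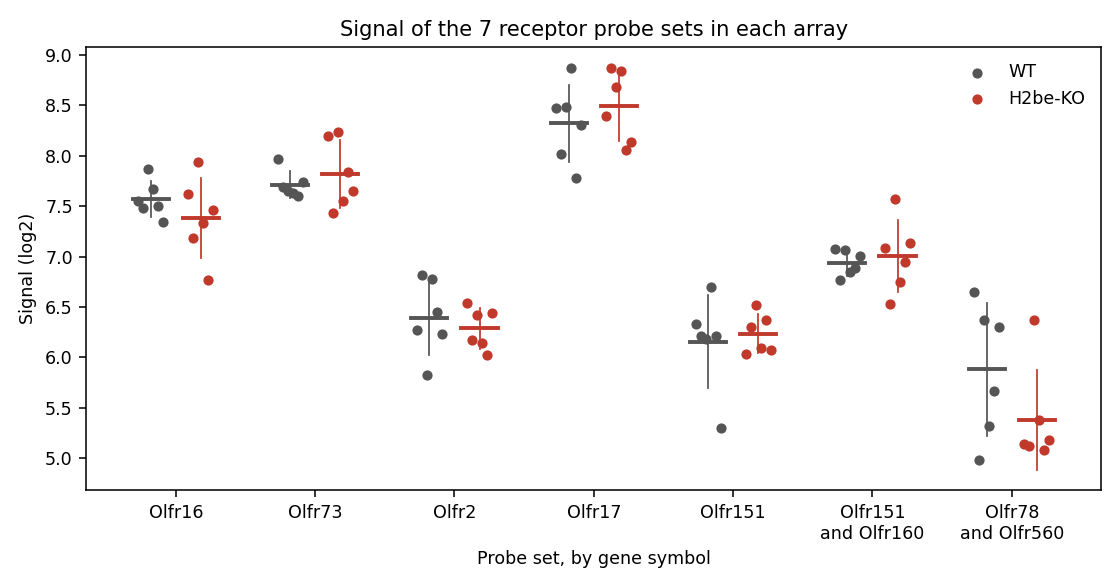
Log2 signal (y axis) of the 7 probe sets (x axis) in each of the 6 WT arrays (grey) and the 6 H2be-KO arrays (red). Each point is an array, horizontal lines are means and vertical lines are ±1 SD, and the genotypes overlap for every probe set.

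Among receptors with a known aldehyde or phenol ligand, Olfr16, the lyral receptor, ranged from 6.76 to 7.94 in H2be-KO, with a median of 7.39. In WT it ranged from 7.34 to 7.87, with a median of 7.53. The WT arrays lay wholly inside the range of the H2be-KO arrays, whose lowest was replicate 5 and whose highest was replicate 3. The means were 7.38 ± 0.40 and 7.57 ± 0.18, a difference of -0.19 (SE 0.16, 95% interval -0.53 to 0.15, n = 6 each, exact permutation p = 0.331).

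For Olfr73, the eugenol receptor, H2be-KO arrays ranged from 7.44 to 8.23 with a median of 7.74. The WT arrays were tighter, from 7.61 to 7.97 with a median of 7.67. Again the WT range lay within that of H2be-KO. The means differed by 0.10 (7.82 ± 0.34 against 7.71 ± 0.13, SE 0.14, 95% interval -0.19 to 0.39, n = 6 each, exact permutation p = 0.496).

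Olfr2, the octanal receptor, showed the opposite order of spreads, with 6.02 to 6.54 in H2be-KO (median 6.30) and 5.82 to 6.82 in WT (median 6.36). All H2be-KO arrays lay within the WT range. The difference was -0.11 (6.29 ± 0.20 against 6.39 ± 0.37, SE 0.16, 95% interval -0.44 to 0.23, n = 6 each, exact permutation p = 0.545).

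Olfr17, the P2 receptor of the glomerular maps, ranged from 8.05 to 8.88 in H2be-KO (median 8.54) and from 7.78 to 8.87 in WT (median 8.39), an almost complete overlap. Its means of 8.50 ± 0.35 and 8.32 ± 0.38 differed by 0.18 (SE 0.19, 95% interval -0.22 to 0.57, n = 6 each, exact permutation p = 0.411).

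M71 and M72 are close relatives encoded by adjacent receptor genes on chromosome 9, and RefSeq lists the Olfr151 gene of its reference assembly as a transcribed pseudogene. Their shared probe set ranged from 6.53 to 7.57 in H2be-KO (median 7.02) and from 6.76 to 7.07 in WT (median 6.94), with the WT arrays inside the H2be-KO range. The difference was 0.07 (7.003 ± 0.36 against 6.94 ± 0.13, SE 0.14, 95% interval -0.24 to 0.37, n = 6 each, exact permutation p = 0.688). The probe set of Olfr151 alone ranged from 6.04 to 6.52 in H2be-KO (median 6.20) and from 5.30 to 6.69 in WT (median 6.21). There the H2be-KO arrays lay inside the WT range, which WT replicate 6 extended downwards. The difference was 0.08 (6.23 ± 0.19 against 6.16 ± 0.46, SE 0.18, 95% interval -0.30 to 0.46, n = 6 each, exact permutation p = 0.784). Both probe sets that include M71 thus gave differences near 0, yet they did not follow each other from array to array (r = 0.03 over the 12 arrays, permutation p = 0.913; rho = 0.01, permutation p = 0.976).

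The largest difference among the 7 was that of the probe set shared by Olfr78, the short-chain fatty acid receptor, and Olfr560. It ranged from 5.08 to 6.37 in H2be-KO (median 5.16) and from 4.98 to 6.65 in WT (median 5.98). H2be-KO arrays other than replicate 3 lay at 5.38 or lower, whereas the WT arrays were spread over the whole range and included the lowest of all, replicate 2. The means of 5.38 ± 0.50 and 5.88 ± 0.66 differed by -0.50 (SE 0.28, 95% interval -1.11 to 0.10, n = 6 each, exact permutation p = 0.149, adjusted p = 0.753 in limma). It was also among the noisiest receptors, with a spread within genotype at the 96.1st percentile, and 1 WT array fell below log2 5. Without H2be-KO replicate 3 the difference was -0.70 (limma p = 0.0151, exact permutation p = 0.0606), and without WT replicate 2 it was -0.68 (limma p = 0.0206, exact permutation p = 0.0628), so that either array decided whether the limma threshold was passed. With array weights the probe set was likewise past the limma threshold, at -0.65. Without WT replicate 1 it was -0.35 (limma p = 0.229, exact permutation p = 0.286).

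**Figure D3:**
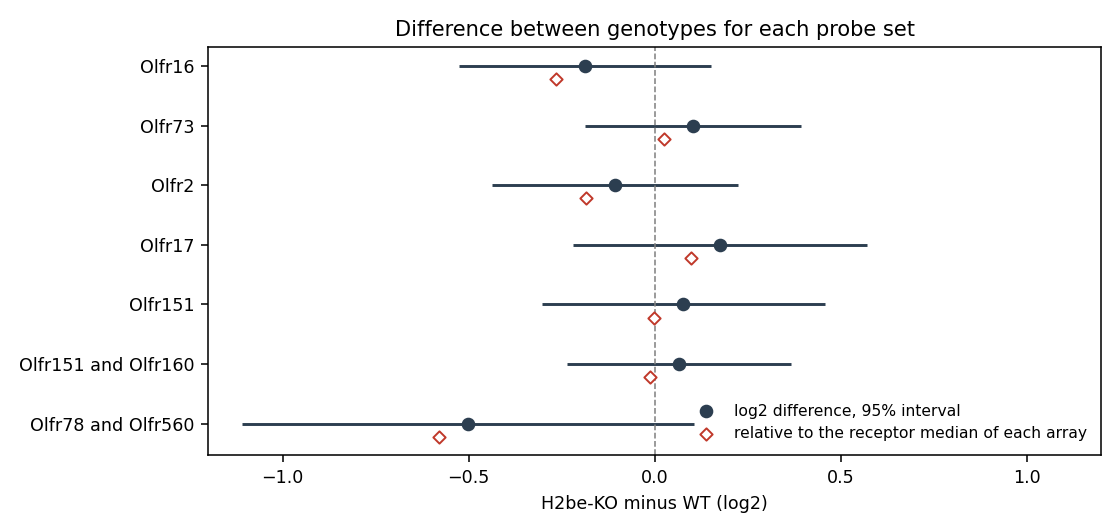
Difference in mean log2 signal, H2be-KO minus WT (x axis), for the 7 probe sets (y axis). Filled points with lines are the differences with their 95% limma intervals, and open diamonds are the differences relative to the receptor median of each array. The intervals all include 0, and the widest runs from -1.11 to 0.10, for Olfr78 and Olfr560.

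Differences were then taken relative to the other receptors, by subtracting from each member the median of all receptor probe sets on the same array. That median was 7.41 to 7.71 in H2be-KO and 7.29 to 7.61 in WT. Olfr16 moved to -0.27 (exact permutation p = 0.143) and the probe set of Olfr78 and Olfr560 to -0.58 (exact permutation p = 0.0931). The other five lay between -0.18 for Olfr2 (exact permutation p = 0.355) and 0.10 for Olfr17 (exact permutation p = 0.677), with Olfr73 at 0.03 and both M71 probe sets within 0.02 of 0. Of the 7, 2 were above 0 and 5 below, and none passed 0.05. Without H2be-KO replicate 3, Olfr16 (-0.35, exact permutation p = 0.0455) and the Olfr78 and Olfr560 probe set (-0.75, exact permutation p = 0.0433) did, and without WT replicate 2 the latter did (-0.77, exact permutation p = 0.0260).

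The spread of the arrays itself differed between members. Olfr16, Olfr73 and the shared M71 and M72 probe set had SDs 2.21, 2.50 and 2.81 times as large in H2be-KO as in WT, and the other 4 had smaller SDs in H2be-KO. Among all receptors, 57.0% had the larger SD in H2be-KO. The difference in spread was not tested.

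Receptors are expressed in zones, with M71, M72, MOR23 and mOR-EG known from the dorsal epithelium and P2 from a ventral zone, so members were compared across arrays with dorsal and ventral markers. The dorsal markers were Nqo1, a quinone reductase, and Acsm4, an acyl-CoA synthetase. Their mean ranged from 10.83 to 11.62 in H2be-KO and from 11.10 to 11.44 in WT, and 0 of the 2 differed by genotype (exact permutation p = 0.706 and 0.894). H2be-KO replicate 3 was the highest array and H2be-KO replicate 2 the lowest.

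After removing genotype means, the shared M71 and M72 probe set followed the dorsal markers most closely (r = 0.88, permutation p = 0.0037; rho = 0.76, permutation p = 0.0079, over 12 arrays). The relation was present within H2be-KO (r = 0.90) and within WT (r = 0.83), and r was 0.55 without the 2 arrays farthest out, H2be-KO replicates 2 and 3. The probe set of Olfr78 and Olfr560 came next (r = 0.69, permutation p = 0.0095; rho = 0.81, permutation p = 0.0031), with r = 0.77 within either genotype and 0.72 without those arrays. Among 35 relations computed, the Benjamini-Hochberg adjusted permutation p was 0.0654 for the former and 0.111 for the latter by r, and 0.103 for both by rho, so none passed 0.05.

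The relation was weaker for Olfr16 and Olfr73, also dorsal receptors, at r = 0.61 for Olfr16 (permutation p = 0.0940, rho = 0.50) and r = 0.56 for Olfr73 (permutation p = 0.145, rho = 0.39). For Olfr73 it rested on H2be-KO replicates 2 and 3, without which r was -0.12. The probe set of Olfr151 alone, for M71 and so also dorsal, did not follow the dorsal markers (r = 0.01, rho = -0.14). Olfr17, the ventral receptor, and Olfr2 gave r of -0.03 and -0.18. For Olfr2 the genotypes went opposite ways, with r = -0.92 within WT and 0.41 within H2be-KO, and r was -0.71 without H2be-KO replicates 2 and 3. This difference between the genotypes was not tested. With the dorsal marker mean as a covariate, an alternative chosen after seeing the data, the genotype difference of the Olfr78 and Olfr560 probe set was -0.54, past the unadjusted limma threshold of 0.05.

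**Figure D4:**
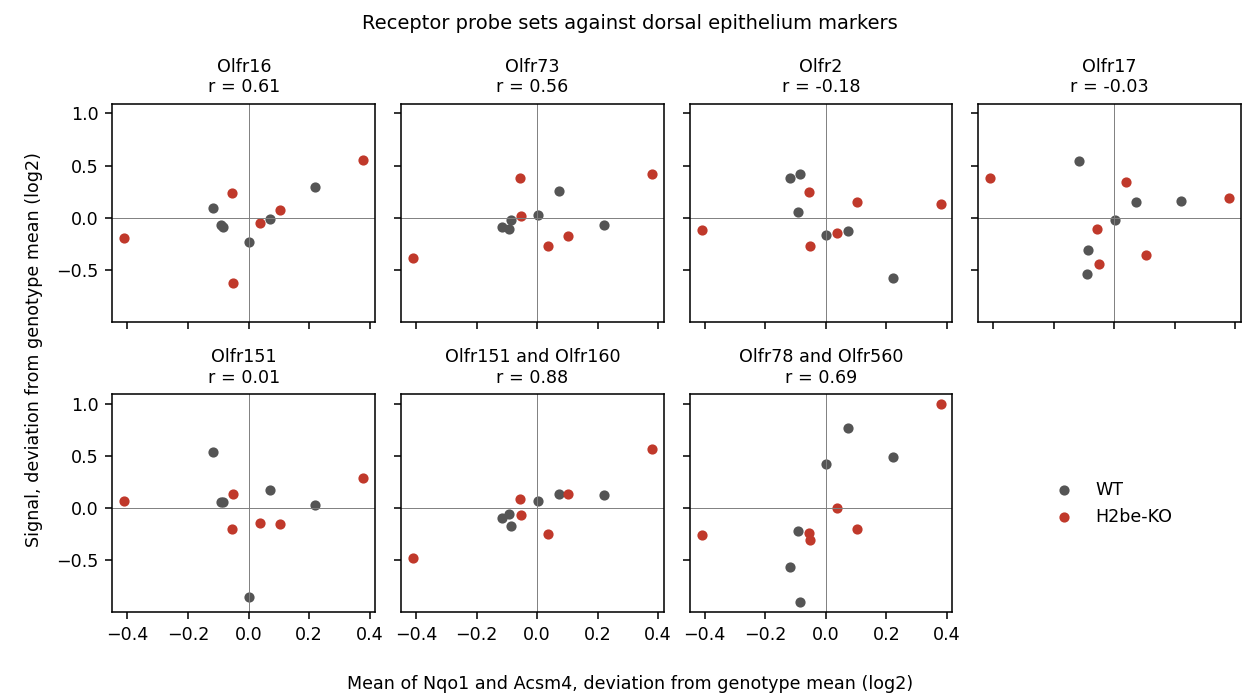
Signal of each probe set (y axis) against the mean of Nqo1 and Acsm4 (x axis), both as log2 deviations from the genotype mean, for WT (grey) and H2be-KO (red) arrays. Points are arrays and r is Pearson's over all 12, from -0.18 for Olfr2 to 0.88 for the probe set of Olfr151 and Olfr160.

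Receptors ran both ways with the dorsal markers, as did probe sets in general. Over the 1101 tested the median r was -0.03, with 5th and 95th percentiles of -0.67 and 0.84. Over all probe sets tested those percentiles were -0.61 and 0.58. At unlike cuts, 81 were above 0.8 and 151 below -0.5, so these counts do not compare the tails. They were not taken over all probe sets. The shared M71 and M72 probe set lay at the 97.2nd percentile of receptors, that of Olfr78 and Olfr560 at the 86.4th, Olfr16 at the 83.5th and Olfr73 at the 81.7th. The probe set of Olfr151 alone lay at the 52.7th. Against the ventral markers Ncam2 and Nrp2, a cell adhesion molecule and a semaphorin receptor, Olfr17 gave r = -0.28 and the strongest relation among the 7 was that of Olfr16 (r = -0.51, permutation p = 0.153; rho = -0.61, permutation p = 0.0621). It rested on H2be-KO replicate 5 and WT replicate 6, without which r was -0.0038.

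Of the 21 pairs of members among the 35 relations, the shared M71 and M72 probe set and that of Olfr78 and Olfr560 had the smallest p (r = 0.68, permutation p = 0.0032, adjusted permutation p = 0.0654; rho = 0.72, permutation p = 0.0089). Their r was 0.74 within H2be-KO and 0.99 within WT, and 0.60 without the 2 arrays farthest out. Next came Olfr73 with the shared M71 and M72 probe set (r = 0.79, permutation p = 0.0147, adjusted permutation p = 0.128; rho = 0.64, permutation p = 0.0648), with r = 0.63 without the 2 arrays farthest out. No pair passed the adjustment.

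Members also differed in the company they kept. Of the 100 single-symbol probe sets most correlated over the arrays with each member, 73 were receptors for Olfr73, 70 for the shared M71 and M72 probe set and 39 for Olfr16, where receptors made up 4.68% of the probe sets compared. For Olfr2, Olfr17 and Olfr151 alone the counts were 4, 3 and 2, and for Olfr78 with Olfr560 it was 14. The probe set most like that of M71 and M72 was Olfr875 (r = 0.93), which lies on chromosome 9 as the second receptor gene beyond Olfr151. The nearest to Olfr16 was Olfr1495 (r = 0.91), and Olfr73 had Mief1, a mitochondrial fission gene (r = 0.94), ahead of Olfr888 (r = 0.92). For Olfr17 it was Adam28 (r = 0.94), for Olfr2 Nebl (r = 0.90), for Olfr151 alone Mtarc1 (r = 0.93) and for Olfr78 with Olfr560 Tob1 (r = 0.90). These were the highest of 21438 correlations or more, each over the same 12 arrays, and are a description.

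Receptor genes lying beside the members on the chromosome were not called either. Of 24 neighbouring receptor probe sets tested, within 3 receptor genes on either side, 0 passed an unadjusted limma p of 0.05, where 5.27% of all receptor probe sets did. With so few, 0 of 24 is not set apart from that share. Their median difference was -0.02. The smallest p was that of Olfr713, which lies between Olfr2 and Olfr17 (7.46 ± 0.18 against 7.68 ± 0.28, difference -0.22, n = 6 each, exact permutation p = 0.130). Olfr2 and Olfr17, separated by Olfr713 and Olfr714, did not follow each other over the arrays (r = -0.08, permutation p = 0.822; rho = 0.00).

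Among 12 further receptors of named ligand or map, 1 was called, the muscone receptor Olfr1440, where 5.55% of all probe sets were called. Its signal was 8.59 ± 0.20 in H2be-KO arrays against 8.26 ± 0.15 in WT arrays, which differ by 0.33 (SE 0.10, n = 6 each, exact permutation p = 0.0108, adjusted p = 0.753 in limma). Lists tied to receptor function had no calls, with 0 of 19 probe sets of odorant transduction, 0 of 8 of receptor trafficking and feedback and 0 of 27 of receptor choice. By the exact permutation test, Slc24a4 of transduction (p = 0.0498) and Nfix of receptor choice (p = 0.0260) passed 0.05. Both were lower in H2be-KO. Of 15 probe sets of axon sorting, which bears on the maps that P2, M71 and M72 neurons form, 2 were lower and 0 higher. These were the guidance cue Sema3f (8.57 ± 0.10 against 8.77 ± 0.15, exact permutation p = 0.0152) and the adhesion molecule Kirrel3 (8.88 ± 0.11 against 9.06 ± 0.11, exact permutation p = 0.0130), each with an adjusted p of 0.753 in limma. With lists this short, 1 of 12 or 2 of 15 is not set apart from the 5.55% called over all probe sets.

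The cell type lists showed few calls, where 5.55% of all probe sets were called. Lists this short are not set apart from that share by their counts. Mature neurons had 0 of 11, immature neurons 1 of 8 (Gap43, higher), progenitors 1 of 6 (Top2a, higher, which did not pass the exact permutation test, p = 0.0801) and horizontal basal cells 1 of 5 (Itgb4, lower). The progenitor gene Ezh2 was higher without being called (limma p = 0.0549), yet passed the exact permutation test (p = 0.0281). Gap43 is also part of the inserted construct by name, and whether its probes read the insert was not analysed here. Sustentacular (7), respiratory ciliated (6), immune (6), erythroid (2), bone and tooth (6), vascular (4), ventral (2) and Y-linked (2) probe sets had 0 calls.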

How the data were processed

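Per the labels and the study's methods, the authors summarised Affymetrix Mouse Gene 1.0 ST scans with IterPLIER and sketch-quantile normalisation in Affymetrix Expression Console and deposited log2 signals for 35556 probe sets on 12 arrays. Such normalisation removes a change shared by most transcripts. The 6612 control probe sets were left out. Of 28944 others, 21789 had 1 symbol, 1621 several and 5534 none. Depth does not apply to arrays, whose number limits the precision. Probe sets with a mean above log2 5 (28151) were fitted with limma 3.58.1 in R 4.3.3 (lmFit, eBayes, genotype only), adjusted by Benjamini-Hochberg. Exact permutation tests used all 924 splits of the arrays, two-sided, with a smallest p of 0.0022. Correlations used 100000 permutations of arrays. Scripts were tested on simulated data.

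Members and lists were chosen with earlier results of these data known. The named genes were the members, H2be, Omp and Cnga2 as checks, up to 3 probe sets most like each member, up to 4 smallest p in each list and neighbouring receptors, in RefSeq order on GRCm38.p6. Amelx and Xist were named after their values were seen. Protein identities were not computed here. Whether replicates were separate litters is not given in the sources used here, so p-values measure only the spread between these arrays. Alternatives covered filter, floor, scaling, weights, covariates, reference and arrays left out.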

Additional observations from a re-analysis of the deposited data

Results flagged for a closer look

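Of the 14 groups of 6 arrays (7 probe sets in 2 genotypes), 2 held an array far from the others, where chance alone flags about 1 in 20 groups. For the probe set of Olfr151 alone, WT replicate 6 was the lowest at 5.30, and its gap to the next array took up 0.633 of the range, above Dixon's critical value of 0.625. For the probe set of Olfr78 and Olfr560, H2be-KO replicate 3 was the highest at 6.37 (0.766 of the range). The latter array was the highest of all 12 for Olfr16, for Olfr73, for the probe set of Olfr151 and Olfr160 and for the dorsal markers. For Olfr78 and Olfr560 it was the highest within H2be-KO only, as WT replicate 1 was at 6.65.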

How the results depend on the processing

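The count of members called, 0 of 7, became 1 with the replicate number as a replicate block, with array weights, with the dorsal markers as a covariate and without H2be-KO replicates 3 and 5 (the last 2 chosen after seeing the data). It was 0 to 1 when single arrays were left out. In each case the one called was the probe set of Olfr78 and Olfr560, at -0.50, -0.65, -0.54 and -0.67 in that order. The cause was not tested. Relative to the receptor median the count ranged from 0 to 2 without single arrays. Replicate numbers were not treated as pairs, because the labels do not say what they mark and 2 of the 6 same-numbered correlations, which ran from 0.0251 to 0.592, were under 0.1. In 4 of 6 the arrays matched best with their own number, a hint from the data of a shared structure, and Xist split the numbers alike in both genotypes.

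Over all probe sets, 1065 were higher and 498 lower. These became 2039 and 951 with the block, 2694 and 1405 with array weights, and 299 and 282 without H2be-KO replicates 3 and 5. The lower count was 899 after quantile normalization, and the higher was 624 with symbols averaged, when fewer rows were tested. Without single arrays they ranged from 513 (without H2be-KO replicate 5) to 2265 (without WT replicate 6) higher and from 313 (without WT replicate 4) to 1552 (without WT replicate 6) lower, with 589 higher without H2be-KO replicate 3, 2235 higher without H2be-KO replicate 4 and 323 lower without H2be-KO replicate 5.

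Directions of small differences turned. Without H2be-KO replicates 3 and 5, Olfr73 was -0.0053, the Olfr151 and Olfr160 probe set -0.0602 and Olfr151 -0.0289. Relative differences of the Olfr151 and Olfr160 probe set and of Olfr151 alone became 0.0019 and 0.0129 against the receptor mean, 0.0406 and 0.0515 against mature neuron markers, 0.0629 and 0.0738 against Omp, 0.0059 and 0.0168 against receptors above log2 6, and 0.0486 and 0.0595 against dorsal markers. Without H2be-KO replicates 1 and 6, relative differences of Olfr73 and Olfr151 were -0.0076 and 0.107. Without single arrays, Olfr151 ranged from -0.0934 to 0.185 and the shared probe set from -0.0474 to 0.161. Relative ranges were -0.101 to 0.0643 for the shared probe set, -0.165 to 0.143 for Olfr151, -0.0334 to 0.0831 for Olfr73 and -0.0089 to 0.243 for Olfr17. Olfr2 and Olfr16 stayed negative, and Olfr78 with Olfr560 too, under every alternative run. Probe sets with 2 symbols gave no value with symbols averaged, and Olfr78 with Olfr560 gave none with the filter at log2 6.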
